A study of Mus musculus with 2 samples.

Results

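The genes described here encode the 5 subunits of the transcription factor NF-κB (Nfkb1, Nfkb2, Rel, Rela and Relb) and 5 of its inhibitors (Nfkbia, Nfkbib, Nfkbie, Nfkbiz and Tnfaip3). They were selected by symbol, and all 10 were found among the 23284 genes of both files. RNA-seq was performed on CML LSCs, with a single WT library and a single STAP-1 KO library, called WT and STAP-1 KO for their levels here. The cells are GFP+ CD45.2+ LSK cells (negative for lineage antigens, positive for Sca-1 and c-Kit) from irradiated Ly5.1 recipients of p210 BCR-ABL-transduced LSK donor cells, sorted at day 11 after transplantation. Both donor genotypes are on the C57BL/6J background and both carry the retroviral BCR-ABL and GFP. They differ in the targeted disruption of Stap1, which encodes an adaptor protein. Mice were 8 to 14 weeks old, and the number of mice behind each library is not given in the sources used here. With 1 library per genotype there is no replicate check, no test of the genotype and no p-value, and whatever else differed between the mice, sorts or preparations is confounded with genotype and cannot be told apart.

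NF-κB acts as a dimer of Rel family proteins, most often RelA with p50, the processed product of Nfkb1. In resting cells IκB proteins hold these dimers in the cytoplasm. Signals from cytokine receptors, toll-like receptors and BCR-ABL activate the IκB kinase (IKK), IκB is degraded, and the free dimers switch on genes that include their own inhibitors. Nfkbia (IκBα), Nfkbie (IκBε), Nfkbiz (IκBζ, a nuclear regulator) and Tnfaip3 (A20, a ubiquitin-editing enzyme that quiets IKK) are such feedback genes, whereas Nfkbib (IκBβ) is little induced. Nfkb1, Nfkb2, Rel and Relb are themselves genes that NF-κB can induce, and p100, the precursor made from Nfkb2, partners RelB in the noncanonical branch.

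Because the comparison concerns inhibitors that NF-κB induces, promoters were searched for the NF-κB consensus motif of 10 bases. RefSeq promoter windows (GRCm38.p6, 250 bases before to 50 after a start site) were at hand for 7 of the members, and 5 of these held a match on either strand: Nfkb2, Rel, Nfkbia, Nfkbie and Tnfaip3. Rela and Nfkbib held none. Over 27025 genes with a window, 9.55% had a match in any window, and among the 7891 of them whose mean reached 1 FPKM the share was 12.2%. The stretches are printed in the gene's direction, with the motif in capitals and overlapping matches joined. The starts are those of RefSeq, and the first ones of Tnfaip3 (19015410) and Nfkb2 (46304737) lie inside the longer GENCODE gene spans given below, so that the stretches of both genes lie within the GENCODE gene.
Nfkbia, 130 bases before the start, chr12:55492648-55492777, minus strand: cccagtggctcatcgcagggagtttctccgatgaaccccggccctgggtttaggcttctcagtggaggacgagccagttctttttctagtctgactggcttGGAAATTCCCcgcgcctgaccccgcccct
Nfkbie, 130 bases before the start, chr17:45555570-45555699, plus strand: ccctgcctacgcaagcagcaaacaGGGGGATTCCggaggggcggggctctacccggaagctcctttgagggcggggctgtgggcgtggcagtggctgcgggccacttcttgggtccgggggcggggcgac
Tnfaip3, 130 bases before the start, chr10:19015411-19015540, minus strand: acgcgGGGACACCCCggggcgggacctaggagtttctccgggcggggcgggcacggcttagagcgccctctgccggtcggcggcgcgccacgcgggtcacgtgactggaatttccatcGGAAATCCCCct
Nfkb2, upstream place, chr19:46304688-46304717, plus strand: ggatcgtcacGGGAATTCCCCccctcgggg
Nfkb2, place next to the start, chr19:46304716-46304745, plus strand: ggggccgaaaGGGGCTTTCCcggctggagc
Rel, chr11:23771042-23771071, minus strand: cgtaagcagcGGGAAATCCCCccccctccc

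Nfkbia had a single match, at 29 to 20 bases before its start. Tnfaip3 and the first Nfkb2 window each had 2 distinct places, of which one lay within 12 bases of the start. A match describes these letters and does not show binding.

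Of the 10 genes, 6 were lower by 2-fold or more in STAP-1 KO (Nfkb2, Rel, Relb, Nfkbie, Nfkbiz and Tnfaip3), 0 were at least 2-fold higher, and 4 stayed below the cut-off (Nfkb1, Rela, Nfkbia and Nfkbib). Both classes were divided. Of the 5 subunits 3 passed the cut-off, and of the 4 induced inhibitors 3 did. Among all 12507 genes with at least 0.1 FPKM in both libraries, 22.9% were at least 2-fold lower and 12.3% at least 2-fold higher. Every member had a mean above 5 FPKM, and among the 8299 genes with such a mean 18.8% were at least 2-fold lower. FPKM counts fragments relative to the exon length of a gene and to the mapped total of its library. This is meant to make levels of different genes comparable per length, but the ratio of the libraries still varied with transcript length. The median log2 ratio of the members, log2((STAP-1 KO + 0.1)/(WT + 0.1)) in FPKM, was -1.25, against -0.04 for the 10974 genes whose mean reached 1 FPKM.

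**Figure D1:**
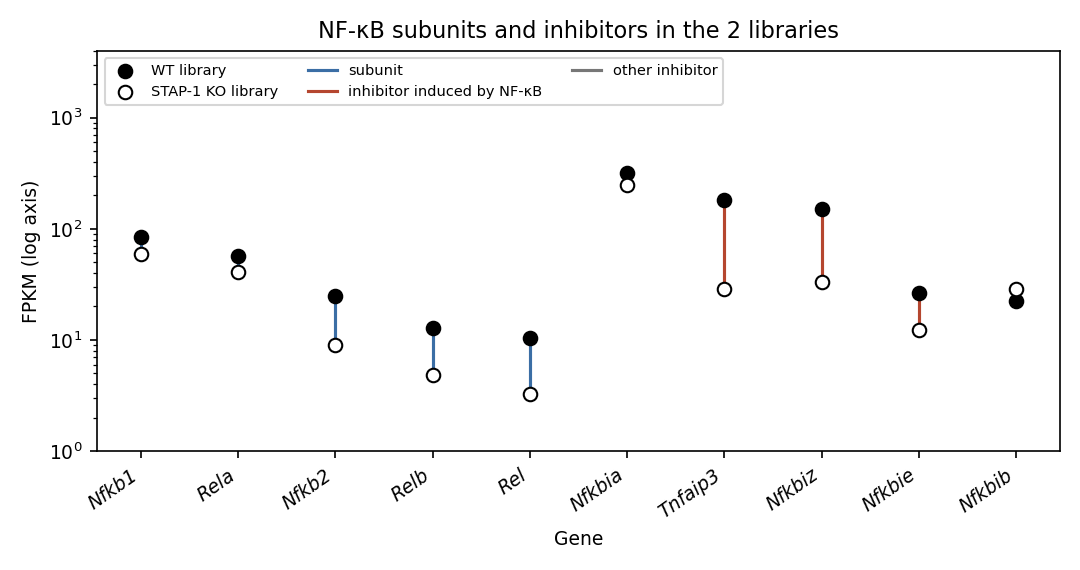
FPKM of each gene (log axis) in WT (filled) and STAP-1 KO (open), with a line colored by role joining the 2 values. Nfkb1, Rela and Nfkbia differ little, Tnfaip3 and Nfkbiz span the longest lines, and Nfkbib is the only gene whose open point is above the filled one.

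The subunits of the canonical dimer were the most abundant subunits and differed least. Gene positions are given on GRCm38, and where a pair of FPKM values is given WT stands first. Nfkb1 (chromosome 3, 135584655 to 135691547, minus strand), which encodes p105 and p50, had 84.0 FPKM in WT and 58.7 FPKM in STAP-1 KO. Rela (chromosome 19, 5637483 to 5648130, plus strand), which encodes the main transactivating subunit, had 56.8 and 40.6 FPKM. The WT level was therefore 1.43-fold that of the STAP-1 KO library for Nfkb1 and 1.40-fold for Rela, and the number of Nfkb1 FPKM per Rela FPKM was 1.48 in WT and 1.45 in STAP-1 KO. The log2 ratios were -0.52 for Nfkb1 (95% interval from -0.60 to -0.44) and -0.48 for Rela (from -0.61 to -0.36). These intervals come from estimated reads by the exact binomial method and cover counting error only. They take no pseudocount, unlike the log2 ratios beside them, which matters most for low genes.

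Nfkb2, Relb and Rel were each between 2.65- and 3.21-fold lower. After the correction for length and GC content given below, only Relb of these stayed past 2-fold, and Rel and Nfkb2 came just short of it. Nfkb2 (chromosome 19, 46304320 to 46312385, plus strand), the source of p100 and p52, had 24.6 FPKM in WT and 8.91 FPKM in STAP-1 KO, a log2 ratio of -1.46 (95% counting interval from -1.66 to -1.27). Relb (chromosome 7, 19606217 to 19629438, minus strand), the partner of p52 in the noncanonical branch, had 12.7 and 4.80 FPKM, a log2 ratio of -1.39 (from -1.77 to -1.05). Rel (chromosome 11, 23736847 to 23770970, minus strand), which encodes c-Rel, the subunit best known from lymphocyte activation, had 10.4 and 3.26 FPKM, a log2 ratio of -1.65 (from -1.90 to -1.46). The order of the subunit levels was the same in both libraries, with Nfkb1 highest, then Rela, Nfkb2, Relb and Rel.

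The makeup of the subunit transcripts differed as well. The 5 subunits summed to 189 FPKM in WT and 116 FPKM in STAP-1 KO. Nfkb1 and Rela together made up 74.7% of this sum in WT and 85.4% in STAP-1 KO, while Nfkb2, Relb and Rel together made up 25.3% and 14.6%. Relative to Rela, Nfkb2 stood at 0.433 in WT and 0.220 in STAP-1 KO, and Rel at 0.184 and 0.0803. A ratio of FPKM values within 1 library does not depend on how that library was scaled, but it can depend on transcript length, and after a correction for length and GC the share of Nfkb1 and Rela in STAP-1 KO was 82.5%.

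Among the inhibitors, Tnfaip3 and Nfkbiz showed the largest differences of the 10 genes. Tnfaip3 (chromosome 10, 19000910 to 19015657, minus strand) had 183 FPKM in WT and 28.4 FPKM in STAP-1 KO, which is 6.42-fold lower and a log2 ratio of -2.68 (95% counting interval from -2.77 to -2.59). Its rank among the 23284 genes by FPKM went from 502 to 3747. Nfkbiz (chromosome 16, 55811375 to 55838899, minus strand) had 151 and 33.2 FPKM, which is 4.54-fold lower and a log2 ratio of -2.18 (from -2.27 to -2.09), and its rank went from 657 to 3373.

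Nfkbie (chromosome 17, 45555703 to 45563169, plus strand), an IκB that holds dimers in the cytoplasm, had 26.6 FPKM in WT and 12.3 FPKM in STAP-1 KO. It was 2.16-fold lower, and the interval of its log2 ratio of -1.10 (from -1.33 to -0.89) spans the cut-off.

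The prototype feedback inhibitor did not follow Tnfaip3 and Nfkbiz. Nfkbia (chromosome 12, 55489410 to 55492647, minus strand) was the most abundant of the 10 genes in both libraries, with 315 FPKM in WT and 247 FPKM in STAP-1 KO, a WT level 1.28-fold that of the STAP-1 KO library and a log2 ratio of -0.35 (95% counting interval from -0.42 to -0.28). Nfkbib (chromosome 7, 28758251 to 28767512, minus strand), the inhibitor that is little induced, had 22.6 and 28.5 FPKM, a log2 ratio of 0.33 (from 0.13 to 0.54), and was the only gene of the 10 with a higher value in STAP-1 KO.

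The order of the inhibitors and Rela differed between the libraries. In the WT library Tnfaip3 had 3.22 and Nfkbiz 2.65 FPKM per FPKM of Rela, and both were above 1. In the STAP-1 KO library these ratios were 0.701 and 0.818, so that Rela exceeded both. With the STAP-1 KO values corrected for transcript length and GC content the ratios were 0.829 and 0.766. Nfkbia stood at 5.54 per Rela in WT and 6.08 in STAP-1 KO, but the correction put STAP-1 KO at 4.26 and so turned the direction. Its share of the summed FPKM of the 5 inhibitors was 45.2% in WT and 70.7% in STAP-1 KO, whereas that of Tnfaip3 was 26.2% and 8.15% and that of Nfkbiz 21.6% and 9.51%. The corrected shares in STAP-1 KO were 63.7% for Nfkbia, 12.4% for Tnfaip3 and 11.4% for Nfkbiz. The IκB genes that retain dimers in the cytoplasm (Nfkbia, Nfkbib and Nfkbie) summed to 1.93 FPKM per FPKM of subunits in WT and 2.47 in STAP-1 KO. This direction turned as well, to 1.82 in STAP-1 KO with the correction.

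**Figure D2:**
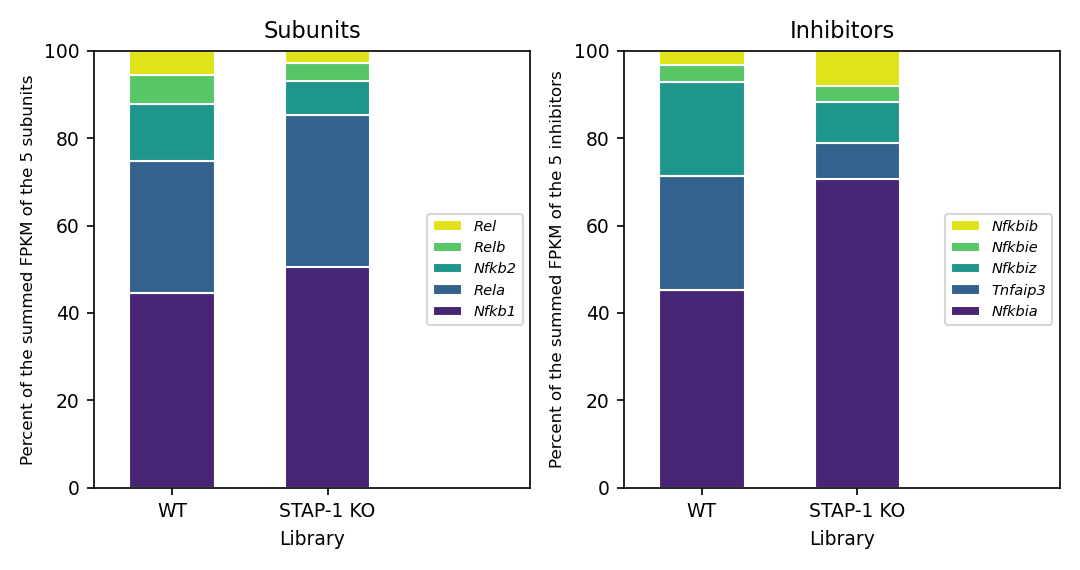
Share of each gene in the summed FPKM of the 5 subunits (left) and of the 5 inhibitors (right), in percent, for 1 WT and 1 STAP-1 KO library. Nfkb1 and Rela make up 74.7% of the subunit sum in WT against 85.4% in STAP-1 KO, and Nfkbia 45.2% against 70.7% of the inhibitor sum.

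Set against each other, the 4 induced inhibitors had a median log2 ratio of -1.64 (from -2.68 to -0.35) and the 5 subunits a median of -1.39 (from -1.65 to -0.48). The ranges of the classes overlapped, and the difference of the medians, induced inhibitors minus subunits, was -0.25. After the correction for length and GC it was -0.55, with medians of -1.52 and -0.98, and without Rel among the subunits, a choice made after seeing the data, it was -0.69. With Nfkbib counted among the inhibitors this difference turned to 0.29, and with Nfkb1 and Rela as the only subunits it was -1.14. These are descriptions of 2 libraries and were not tested.

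**Figure D3:**
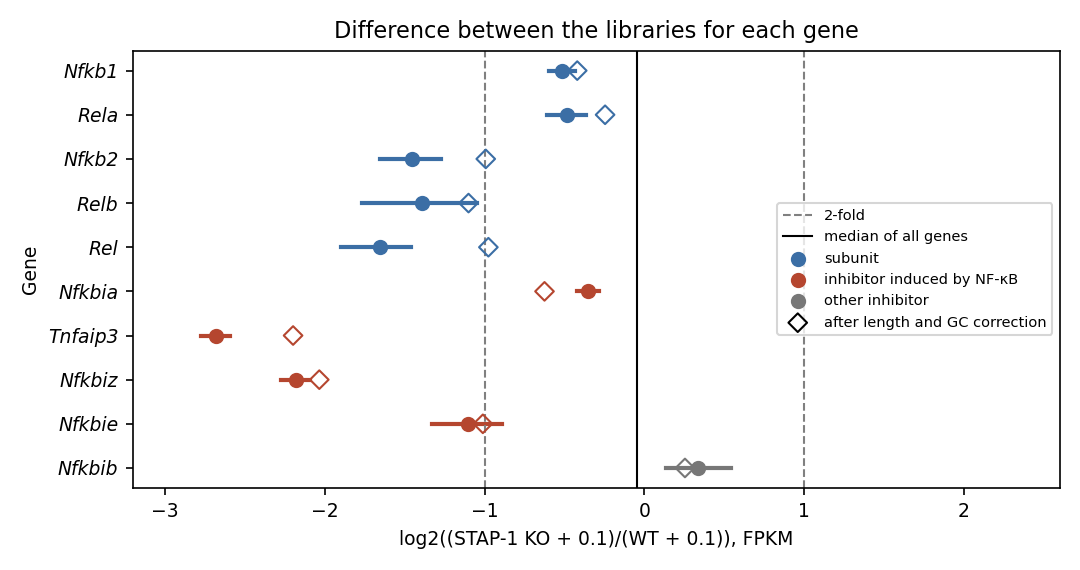
Log2 ratio of STAP-1 KO to WT for each gene (filled circles), with bars for the 95% counting interval and open diamonds for the value after correction for transcript length and GC content. Dashed lines mark 2-fold and the black line the median of all genes. Tnfaip3 and Nfkbiz lie farthest left with both measures.

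The ratio of the libraries varied with transcript length, and the members differ in length. Across 10865 annotated genes whose mean reached 1 FPKM, Spearman's rho between the log2 ratio and the longest transcript was -0.37, a correlation across genes of 1 pair of libraries. Rel has a transcript of 7466 bases, and the 543 genes of similar length (6379 to 7752 bases) had a median log2 ratio of -0.94, with 48.8% of those above the floor at least 2-fold lower. For Tnfaip3, with 6199 bases in its longest annotated transcript, the genes of similar length had a median of -0.59, and 34.0% were at least 2-fold lower. Nfkbia has 1578 bases, and genes of similar length had a median of 0.41.

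After the median of genes of similar length and GC content was taken off, the log2 ratio was -2.20 for Tnfaip3, -2.03 for Nfkbiz, -1.10 for Relb and -1.01 for Nfkbie, all still past 2-fold. Rel and Nfkb2 came just short of it, at -0.98 and -0.99. Nfkbia moved to -0.62, Nfkb1 to -0.42, Rela to -0.25 and Nfkbib to 0.25. With the correction 4 of the 10 genes were therefore at least 2-fold lower, against 17.8% of the 10865 genes corrected, of which 10.3% were at least 2-fold higher. When the summed FPKM of the libraries was made equal instead, 5 genes were, against 19.8% of all genes, with Nfkbie short of the cut-off at -0.94. At a 1.5-fold cut-off 6 of the 10 genes were lower, against 32.8% of all genes, and at a 4-fold cut-off Tnfaip3 and Nfkbiz were, against 8.56%.

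**Figure D4:**
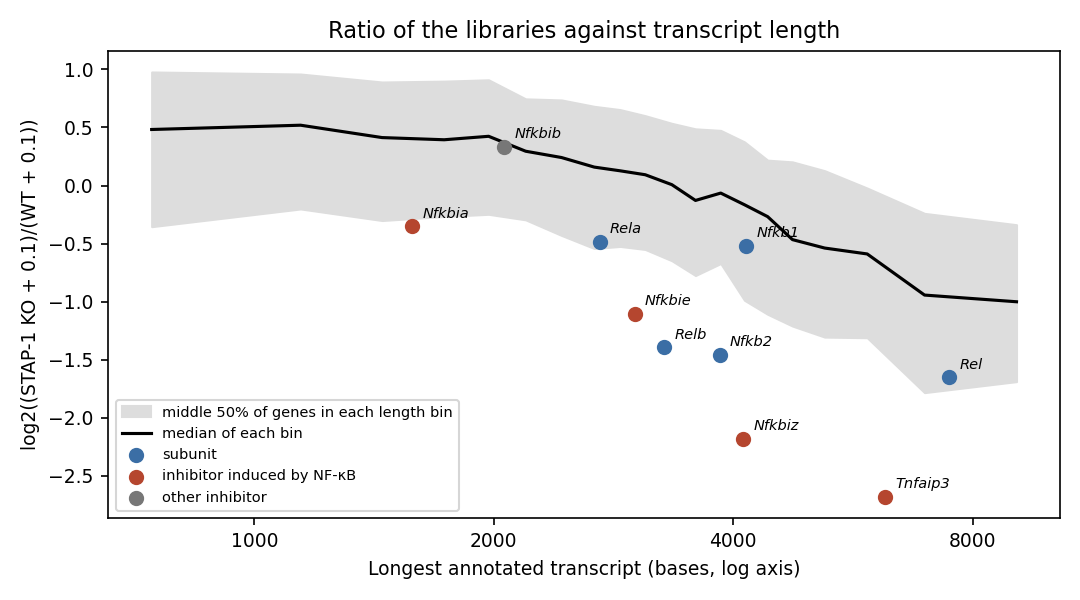
Log2 ratio of STAP-1 KO to WT against the longest annotated transcript (bases, log axis). The black line and gray band give the median and middle 50% of genes in 20 length bins, and the points are the 10 genes. Tnfaip3, Nfkbiz, Nfkb2, Relb and Nfkbie lie well below the band, Nfkbia lies just below it, and Rel, Nfkb1, Rela and Nfkbib lie within it.

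Spacing of the lowest FPKM values placed the effective depth at about 7490000 reads in WT and 10480000 reads in STAP-1 KO. Among the members the estimated reads ran from 101 (Relb in STAP-1 KO) to 5765 (Tnfaip3 in WT). In the targeted gene Stap1, the WT library had 62.0 FPKM and the STAP-1 KO library 0.309 FPKM. The cDNA kit does not mark strand, and exons of Nfkbib overlap 42 bases of an exon of Sirt2 on the opposite strand (91.6 and 25.5 FPKM) and exons of Nfkb2 overlap 299 bases of Psd (0.650 and 0.828 FPKM). Ccer2 overlaps Nfkbib over 314 bases and another annotated gene overlaps Nfkb2 over 501 bases, also on the opposite strand, so that reads there cannot be assigned.

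Some markers of other cells differed between the libraries too. Among all genes with at least 0.1 FPKM in both libraries, 22.9% were lower by 2-fold or more and 12.3% higher. All 12 mast cell and basophil markers were found in the files, 10 were lower by 2-fold or more in STAP-1 KO, and their sum was 51871 FPKM in WT and 5332 FPKM in STAP-1 KO, with Mrgprb1 listed at 0 in WT. Of 8 neutrophil primary granule markers 7 were at least 2-fold higher and 0 lower, with sums of 1041 and 5510 FPKM. The 10 monocyte and macrophage markers summed to 235 and 246 FPKM, with 3 genes past the cut-off in each direction. Of the 6 erythroid markers found of 8, 3 were at least 2-fold lower and 0 higher, with sums of 1997 and 973 FPKM. Of the 9 B and T cell markers found of 10, 1 was at least 2-fold lower and 3 higher, with sums of 17.5 and 62.2 FPKM. Cd79a was listed at 0 in WT. Only 2 of the 9 reached a mean of 1 FPKM, Lck (11.8 and 41.9 FPKM) and Cd79b (3.10 and 17.8 FPKM), and they made up most of both sums. The other genes called, Cd4 (0.139 and 0.463 FPKM) and Cd8a, were near the floor. Ms4a1 (0.505 and 0.0517 FPKM) was not called because its STAP-1 KO value lay under the floor. The part of these cells in the differences of the NF-κB genes was not tested, and fewer cells of a type cannot be told apart from less RNA per cell. Of the sorting antigens, Kit had 468 and 30.1 FPKM and Ly6a, which encodes Sca-1, 285 and 106 FPKM. Of the lineage antigen genes, Cd3e had 0.869 and 1.09 FPKM, Cd8a 0.369 and 0.132 FPKM, and Itgam 1.82 and 1.56 FPKM.

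Upstream of the members, the IKK subunits themselves differed less than 2-fold. Chuk (IKKα) had 40.6 FPKM in WT and 33.8 FPKM in STAP-1 KO, Ikbkb (IKKβ) had 36.0 and 29.4 FPKM, and Ikbkg (the regulatory subunit NEMO) had 14.3 and 7.52 FPKM. Genes of the lists below were counted if their mean reached 1 FPKM. The shares of all genes, 22.9% and 12.3%, cover those with at least 0.1 FPKM in both libraries, an unlike filter. With a mean of at least 5 FPKM, the share at least 2-fold lower was 18.8%. Of the 11 genes of IKK and upstream kinases, 4 were at least 2-fold lower and 0 higher, against 22.9% and 12.3% of all genes. These were Map3k14 (2.32 and 0.482 FPKM), which encodes the NIK kinase of the noncanonical branch, Map3k8 (39.9 and 9.22 FPKM), which encodes TPL2, a kinase bound by p105, and Tab2 (16.4 and 7.65 FPKM) and Tab3 (6.91 and 1.49 FPKM), which link TAK1 to ubiquitin chains. The median log2 ratio of the list was -0.76, and -0.40 after the correction for length and GC content, which put Tab2 at -0.87 and left 3 of the 11 genes past the cut-off, against 17.8% of all genes corrected.

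Of 19 adaptors and ubiquitin ligases, 7 were at least 2-fold lower and 1 higher (all genes, 22.9% and 12.3%), with a median log2 ratio of -0.55. After the correction 5 of the 19 were lower and 0 higher (all genes, 17.8% and 10.3%). Malt1 (17.3 and 4.92 FPKM), which encodes a paracaspase, was among the lower genes, as were Traf5 (16.6 and 4.18 FPKM), a TRAF adaptor, and Birc3 (44.6 and 14.5 FPKM), which encodes a cIAP ubiquitin ligase. Of the 9 A20 partners and deubiquitinases 8 had a mean of at least 1 FPKM, 3 of them were at least 2-fold lower and 0 higher (all genes, 22.9% and 12.3%), and the median was -0.87. The partner of A20 Tnip1 had 23.2 and 11.6 FPKM, the ubiquitin ligase Itch had 30.4 and 12.9 FPKM, and the deubiquitinase Otud7b had 4.50 and 1.43 FPKM. Tax1bp1, an adaptor of A20, had 452 and 227 FPKM, just short of the cut-off. The correction ended all 3 calls of this list, with log2 ratios of -0.78 for Tnip1, -0.96 for Itch and -0.60 for Otud7b, while Tax1bp1 passed at -1.15, which makes 1 of 8 against 17.8% of all genes corrected.

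Of the nuclear IκB genes outside the members, 1 of 2 was at least 2-fold lower (all genes, 22.9%). Nfkbid, which encodes a relative of IκBζ, had 75.3 FPKM in WT and 26.6 FPKM in STAP-1 KO, a log2 ratio of -1.50. Bcl3, which encodes a coactivator of p50 and p52 dimers, had 16.4 and 11.3 FPKM, a log2 ratio of -0.54.

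Of the 34 NF-κB target genes outside the members 29 had a mean of at least 1 FPKM. Among these 18 were at least 2-fold lower, against 22.9% of all genes, and 4 at least 2-fold higher, a share near the 12.3% of all genes, and the median log2 ratio was -1.07. The lower genes with the largest differences were Csf1 (369 and 3.66 FPKM), the macrophage growth factor, the monocyte chemokine gene Ccl2 (383 and 15.8 FPKM), the signaling adaptor gene Traf1 (28.1 and 2.57 FPKM) and the cytokine gene Il6 (384 and 52.1 FPKM). The 4 higher genes, named after their values were seen, were Clec4e (7.10 and 52.3 FPKM), Cxcl10 (16.9 and 77.1 FPKM), Marcksl1 (26.5 and 72.2 FPKM) and Irf1 (29.4 and 59.6 FPKM). After the correction 17 of the 29 genes were lower, all among the 18, against 17.8% of all genes corrected. The corrected count of higher genes was again 4, against 10.3%, without Irf1 at 0.86 and with Tnfrsf1b, a TNF receptor gene named after its values were seen, at 1.07. Without the cytokine and chemokine genes the median of the list was -0.70.

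**Figure D5:**
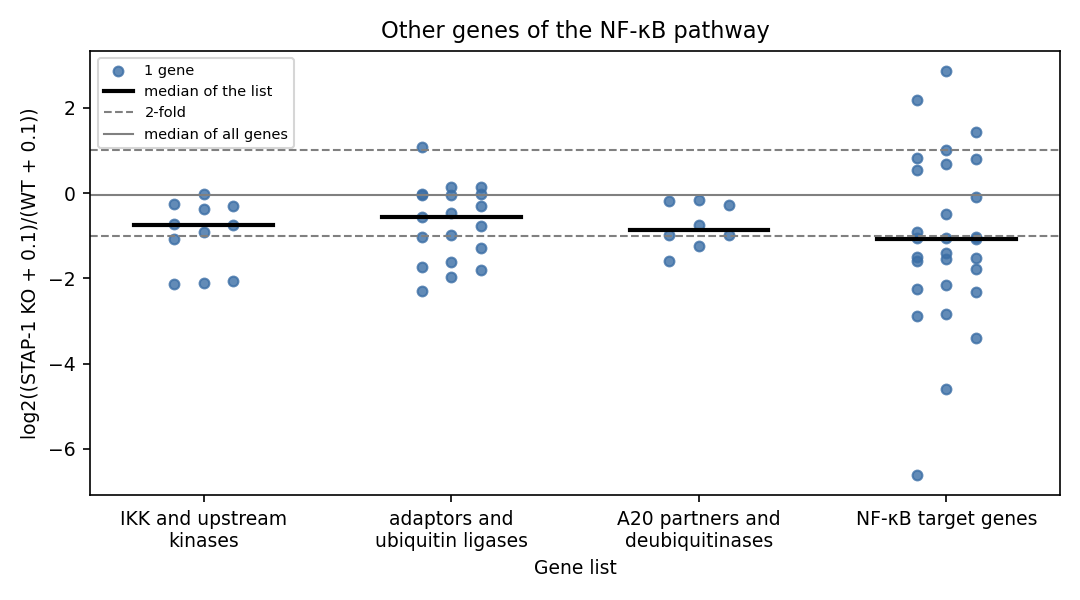
Log2 ratio of STAP-1 KO to WT for the genes of 4 pathway lists with a mean of at least 1 FPKM (1 point per gene, spread sideways to separate them), with bars at the medians. Dashed lines mark 2-fold and the gray line the median of all genes. The target genes spread widest, and their median of -1.07 is the lowest.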

How the data were processed

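RNA-seq values of 1 WT and 1 STAP-1 KO library were used. The authors aligned single reads of 75 bases to the mm10 genome. Their tools were Bowtie2 2.2.3, TopHat 2.0.13 and SAMtools (1.0 in the methods, 0.1.19 in the submitters' processing notes), and they deposited FPKM values per gene symbol from Cuffnorm 2.2.1. The annotation and the library scaling are not given in the sources used here.

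Ratios used pandas 2.3.3, scipy 1.17.1 and numpy 2.4.6 under Python 3.11.15, and figures matplotlib 3.10.9. A gene was counted as lower or higher at a ratio of 2 without pseudocount, provided that neither library was under 0.1 FPKM. Log2 ratios used a pseudocount of 0.1 FPKM, which understates differences of low genes. Coordinates and transcripts came from GENCODE M21 (GRCm38), to which 20911 symbols matched as written and 1923 by another symbol, and promoters from RefSeq.

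Effective depth was the value that put most low FPKM values of genes with a single transcript on whole reads. Within 0.01 of a whole read lay 44.9% of 352 WT values and 51.0% of 363 STAP-1 KO values. By chance 2% would at a single fixed setting. The depth and the bases taken off each transcript were chosen to make this share largest, so 2% understates the chance share. Reads of a gene were estimated from its longest coding transcript, so they depend on isoform use. Because Cuffnorm may rescale libraries, depths are approximate. The correction took off the median of 20 length bins, then of 20 GC bins, and was applied to ratios between genes and to list counts after seeing the data. Counting, depth and correction steps were tested on simulated reads with a single transcript length per gene and a smooth length trend. This checks the code and not whether its assumptions hold for these data.

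The members and lists were chosen with earlier results of these data known. Named genes were the members, the IKK and nuclear IκB genes, and up to 4 genes per list with the largest absolute log2 ratio at a pseudocount of 1 FPKM. Some genes of the lists are not reported here. Alternatives changed pseudocount, scaling, cut-off, filter and list membership. No p-value was computed.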

Additional observations from a re-analysis of the deposited data

How the results depend on the processing

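With 1 library per genotype the design leaves biological variation unmeasured, and no library could be left out. No paired analysis was possible because each genotype has 1 library. The count of 6 members at least 2-fold lower was also 6 at a 1.5-fold cut-off and at a pseudocount of 1 FPKM. It was 6 as well with medians or upper quartiles made equal and among genes whose mean reached 5 FPKM. With summed FPKM made equal it was 5, with the correction for length and GC content 4, and at a 4-fold cut-off 2. Over the alternatives for single members, the log2 ratio ran from -2.68 to -2.20 for Tnfaip3, from -2.18 to -2.01 for Nfkbiz, from -0.62 to -0.18 for Nfkbia and from 0.25 to 0.50 for Nfkbib, and none of the 10 genes changed sign. Medians were compared with the medians of the single genes' lower and upper counting limits. These limits are not a counting interval of the median itself. For the difference of medians opposite limits were subtracted, giving -0.75 to 0.16, which spans both signs. The correction for length and GC content moved the median of the subunits to -0.98, of IKK and upstream kinases to -0.40, of A20 partners and deubiquitinases to -0.52 and of the target genes to -1.51. In a setting added after seeing the data, the same correction reversed the log2 difference between the libraries of Nfkbia per Rela, from 0.13 to -0.38, and of cytoplasmic IκB genes per subunit sum, from 0.36 to -0.084. Equal summed FPKM moved the induced inhibitors to -1.47, IKK and upstream kinases to -0.59 and adaptors and ubiquitin ligases to -0.38. With other genes in the groups, the subunit median was -0.50 with Nfkb1 and Rela only and, in a choice made after seeing the data, -0.95 without Rel. The inhibitor median was -1.10 with Nfkbib. The difference of medians, -0.25 as reported, was 0.29 with Nfkbib and -1.14 with Nfkb1 and Rela as the only subunits. It was -0.55 with the correction and -0.69 without Rel, and these 2 lay within its wide interval. The target median without cytokines and chemokines, also chosen after seeing the data, was -0.70. The cause of these shifts was not tested beyond what each alternative changes by construction. In all, 51 alternative values of these results stayed within their interval or within 1.5 times the count, among them the counts of 5 and 4.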

Other observations

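Of the 24 target genes outside the members with a promoter window and a mean of at least 1 FPKM, 10 held the NF-κB consensus motif and 5 of these were lower by 2-fold or more in STAP-1 KO. Of the 14 without the motif 9 were at least 2-fold lower, and the share of all genes past this cut-off was 22.9%. Over all 7891 expressed genes with a window, the median log2 ratio was -0.15 for those with the motif and -0.05 for those without.

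Nfkbia and Tnfaip3 are both NF-κB-induced inhibitors with a motif close to the start. The WT library had 1.72 FPKM of Nfkbia per FPKM of Tnfaip3 and the STAP-1 KO library had 8.67, or 5.14 after correcting for length and GC. For Nfkbia against Nfkbiz the ratios were 2.09 and 7.43, the latter 5.56 with the correction.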
